A study of Mus musculus with 10 samples.

Results

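Knockdown of linc-MYH in tibialis anterior (TA) fibers was read on 4 Affymetrix Mouse Gene 1.0 ST arrays out of 10 in the series. These were the arrays whose titles name the TA, and the other 6 were of gastrocnemius. On 2 arrays the fibers carried a vector expressing a short hairpin RNA against linc-MYH (shlinc-MYH), and on 2 they carried the control vector. All 4 came from TA muscle of mice with the strain given as C56BL6N and the age as 8 weeks, which the protocol in the labels gives for the electroporation; the methods name another age for transfection in vivo. In both groups 10 µg of vector had been introduced by electroporation, and green fluorescent fibers were dissected 2 weeks later. According to the methods, the control hairpin of such experiments targeted LacZ and was placed in the TA of the other leg, and a single hairpin was used against linc-MYH. The sources do not say whether an array held the fibers of 1 muscle or of several, so p-values measure only the spread between these arrays, which may be technical. The unit was the gene, and each of 19938 genes was read as the log2 signal of 1 probe set, a group of short probes.

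Adult fast fibers of the TA contract with fast myosin heavy chains and fast troponins, whereas slow fibers use slow isoforms of the same proteins. Embryonic and neonatal isoforms are made in developing fibers and return when a fiber regenerates or loses its nerve. The transcript linc-MYH is a long noncoding RNA of the fast Myh locus, and the question was which RNAs of a fast muscle differ when it is depleted.

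No probe set of the platform annotation carried linc-MYH (2310065F04Rik) alone, so the targeted RNA was not read as a gene here. Whether a probe set with several symbols, or one without a symbol, measures linc-MYH was not tested. The study reported efficient knockdown of linc-MYH in TA muscle by qPCR. The 8 fiber identity markers, among them Acta1, Ckm and Mylpf, lay at or above percentile 98.2 of the control signals. Medians of the 4 arrays ran from 5.09 to 5.14. The median absolute difference over genes was 0.15 between the controls and 0.13 between the shlinc-MYH arrays. Control 1 lay at least 2-fold above control 2 for 77 genes and at least 2-fold below it for 49. Between the shlinc-MYH arrays these counts were 42 and 91.

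The linear model of limma, in which genes share information on their spread, found 3 genes that rose at an adjusted p under 0.05, or 0.0150% of the genes tested, and 0 genes that fell, or 0%. At an unadjusted p under 0.05 it gave 852 genes higher and 872 lower. The mean difference reached 2-fold upward for 57 genes (0.286%) and downward for 9 (0.0451%). Of the 57, 41 were at least 2-fold higher against each of the controls taken alone, whereas 1 of the 9 was at least 2-fold lower against each. The strictest count asked that even the lower shlinc-MYH array be at least 2-fold above the higher control. By it, 24 genes were higher (0.120%) and 1 was lower (0.00502%). The last was Gm13092, a predicted gene near the bottom of the signal range, at 3.995 and 4.08 in the controls and 2.94 on both shlinc-MYH arrays, named here after its values were seen. Without shlinc-MYH replicate 2 the counts came closer, at 68 higher and 56 lower by the mean difference and 47 higher and 23 lower with groups 2-fold apart. After quantile normalization of the 4 arrays the groups of Gm13092 were less than 2-fold apart.

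The weaker criterion of no overlap, in which both shlinc-MYH arrays lie on the same side of both controls, was met by 3248 genes upward (16.3%) and 4578 downward (23.0%). Of these, 41.5% were higher, and the share was 53.2% after each array was centred on its median. Without dim genes, and so over fewer genes, the counts were 2140 and 2122. The median log2 fold change over all genes was -0.03 as deposited and 0.01 after centring. With 2 arrays against 2, an exact two-sided permutation test of a single gene cannot go below p = 0.33.

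**Figure D1:**
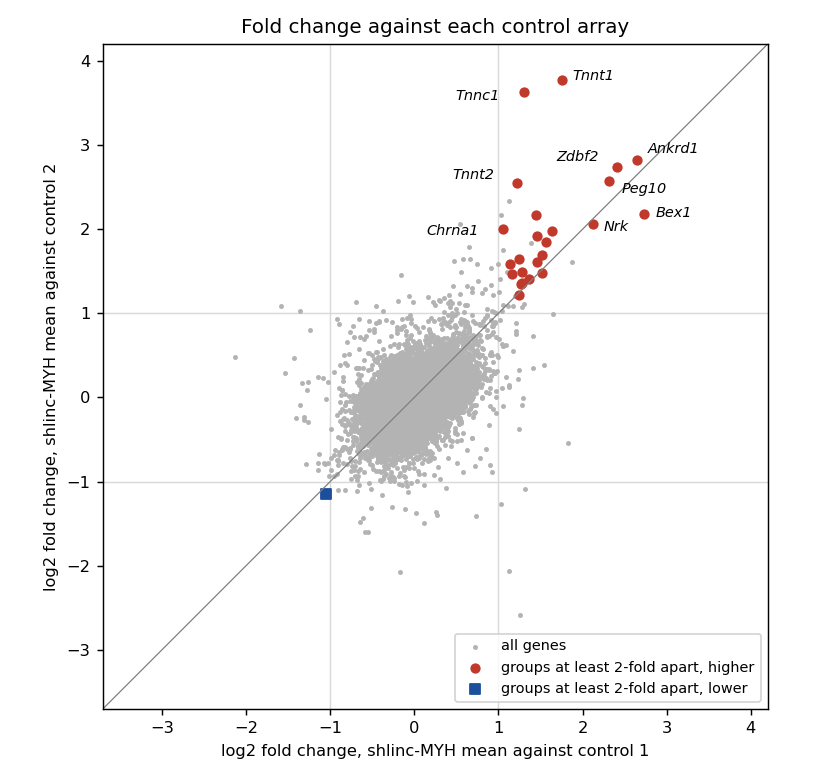
Log2 fold change of each gene against control 1 (horizontal axis) and against control 2 (vertical axis), with the mean of the 2 shlinc-MYH arrays in both. Red circles are the 24 genes and the blue square is the 1 gene whose groups lie at least 2-fold apart, thin lines mark 2-fold and the diagonal marks equal values. Ankrd1, Zdbf2 and Nrk sit near the diagonal, whereas Tnnt1, Tnnc1 and Tnnt2 stand higher against control 2 than against control 1.

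The 3 genes that rose had controls close to each other. Ankrd1, a protein of the sarcomere and nucleus that responds to mechanical stress, was at 8.22 and 8.04 in the controls and at 10.72 and 11.01 with shlinc-MYH. Even the nearest pair of arrays from the 2 groups differed by 2.50 on the log2 scale. The fold was 6.65 (log2 fold change 2.73, standard error 0.15, limma adjusted p = 0.0165). Zdbf2, an imprinted gene, was at 6.18 and 5.86 against 8.72 and 8.47, with a fold of 5.97 and the same limma adjusted p of 0.0165. Nrk, a kinase known from embryonic muscle, was at 3.83 and 3.89 against 6.04 and 5.86, with a fold of 4.25, and its limma adjusted p was again 0.0165. Its controls lay at percentile 18.2 of the signals, so the fold is taken over a dim control signal, and a filter on dim genes leaves Nrk out. All 3 had both shlinc-MYH arrays at least 2-fold above both controls. Limma called 0 genes when any 1 of the 4 arrays was left out.

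Promoters are shown for 4 genes whose shlinc-MYH arrays lay above both controls and whose window held one of the motifs searched. They are the 250 bases before the start site in RefSeq (GRCm38.p6), read 5′ to 3′ on the strand of the gene. Motifs were searched on both strands. MEF3 was sought as its exact Myogenin consensus only, so the variant MEF3 sites that the study also counts are missed. The motifs were the MEF3 consensus (GAAACCTGA), the core of the heat shock element (GAANNTTC), an E-box of myogenic factors (CAGCTG) and the MCAT element of TEAD factors (CATTCC). Over all 32851 promoter windows they were present in 0.387%, 6.69%, 13.0% and 12.6%. Capitals mark every match. In Ankrd1 (chr19:36119845-36120094, minus strand) these are MCAT elements and a heat shock core, which overlaps the MCAT element before it.
Ankrd1: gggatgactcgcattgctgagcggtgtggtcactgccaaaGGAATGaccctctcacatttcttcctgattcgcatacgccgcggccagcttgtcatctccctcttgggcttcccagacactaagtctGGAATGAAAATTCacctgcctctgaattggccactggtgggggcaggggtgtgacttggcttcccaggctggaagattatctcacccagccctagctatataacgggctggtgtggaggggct
Hspb1 (chr5:135887669-135887918, plus strand) held a pair of heat shock cores and then an MCAT element.
Hspb1: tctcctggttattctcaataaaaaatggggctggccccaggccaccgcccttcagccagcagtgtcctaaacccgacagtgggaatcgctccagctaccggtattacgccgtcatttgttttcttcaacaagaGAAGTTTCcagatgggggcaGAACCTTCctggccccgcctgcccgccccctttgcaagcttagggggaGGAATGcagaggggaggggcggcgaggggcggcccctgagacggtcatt
In Myog (chr1:134289754-134290003, plus strand) the capitals are a MEF3 site, and the consensus searched is the Myogenin one. The groups of Myog were less than 2-fold apart, so it is not among the 24 genes counted below.
Myog: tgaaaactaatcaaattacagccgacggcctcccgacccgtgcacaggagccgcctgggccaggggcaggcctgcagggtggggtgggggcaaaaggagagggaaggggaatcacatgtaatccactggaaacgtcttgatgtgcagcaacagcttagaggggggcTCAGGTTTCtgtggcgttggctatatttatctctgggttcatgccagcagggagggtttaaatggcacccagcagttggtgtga
Chrng (chr1:87205561-87205810, plus strand) held E-boxes.
Chrng: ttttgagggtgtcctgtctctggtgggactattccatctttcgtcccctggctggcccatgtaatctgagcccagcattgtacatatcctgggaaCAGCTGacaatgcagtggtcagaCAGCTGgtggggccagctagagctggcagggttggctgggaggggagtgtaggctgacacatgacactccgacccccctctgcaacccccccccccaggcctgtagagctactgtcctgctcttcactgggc
Of the 24 genes with the groups 2-fold apart, 20 had a promoter window. Among these, 0 held the MEF3 consensus in any window, 2 the heat shock core, 7 the E-box and 8 the MCAT element. These are counts of genes, which can have several windows, so the shares over windows are not their background. A match is a description of the letters and not a site of binding.

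Slow sarcomere genes were among the widest differences, with controls that stood apart. Tnnt1, the slow troponin T, was at 8.01 on control 1 and 5.997 on control 2, and at 10.07 and 9.46 on the shlinc-MYH arrays. Its fold was 6.78 over both controls (limma adjusted p = 0.423). Tnnc1, the slow and cardiac troponin C, had a wider split of its controls, at 8.06 and 5.74, with shlinc-MYH arrays at 9.43 and 9.29. For both genes the lowest shlinc-MYH array was nevertheless over 2-fold above the higher control, by 1.44 for Tnnt1 and 1.23 for Tnnc1 on the log2 scale. Tnni1, the slow troponin I, had close controls at 6.18 and 6.02 and shlinc-MYH arrays at 7.89 and 7.38. Sln, the calcium pump inhibitor sarcolipin, was at 5.90 and 5.62 against 7.61 and 7.32. Its fold was 3.27, with a limma adjusted p of 0.0579.

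Of 18 measured slow list members, 12 were above both controls on both arrays (66.7%, against 16.3% of all genes) and 1 was below. The list median was 0.70 against -0.03 over all genes. The median was 0.54 against control 1 alone and 0.81 against control 2 alone. The slow calcium store protein Casq2, at a log2 fold change of 1.11, and the slow calcium pump Atp2a2, at 0.76, were among the 12. Pln, phospholamban, which restrains that pump, was the member below, at 8.57 and 8.49 against 7.83 and 7.97. Myh7, the slow myosin heavy chain, was at 5.68 and 4.98 against 5.02 and 4.98, and its groups overlapped. Tpm3, the slow tropomyosin, also overlapped, with 9.08 on control 1 and values of 7.71 to 7.84 on the other arrays. Besides troponins and calcium handling genes, the 12 included Myoz2, a protein of the Z-disc, at 8.94 and 8.38 against 9.58 and 9.68. Several slow genes were named by the study from these same arrays, so this list is not independent evidence of direction.

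Developmental isoforms split into a higher and an overlapping set. Myh3, the embryonic myosin heavy chain, was at 5.89 and 5.55 in the controls and at 7.80 and 7.26 with shlinc-MYH, a fold of 3.51. Tnnt2, the troponin T of heart and developing muscle, was at 8.60 and 7.27 against 9.96 and 9.69. Myl4, the embryonic and atrial light chain, was at 8.06 and 6.85 against 9.30 and 9.06. Neonatal Myh8 was at 7.20 and 6.75 against 9.17 and 8.01. These 4 of 7 measured members were above both controls on both arrays (57.1%, against 16.3% of all genes). Actc1 and Myl7 overlapped, and Mybpc3 was lower on both arrays by less than 0.1 at the nearest pair. The list median was 1.61, but 1.12 against control 1, 1.84 against control 2 and 1.03 without shlinc-MYH replicate 1.

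Among neighbors of linc-MYH in the order of genes on chromosome 11, the 2 developmental myosins, Myh3 and Myh8, were the genes above both controls on both arrays. Myh3 is the protein-coding gene on one side, and Myh2, Myh1, Myh4, Myh8 and Myh13 follow on the other. Myh2, of the IIa fibers, was at 10.11 and 10.15 against 9.29 and 10.45, so the 2 shlinc-MYH arrays lay on either side of the controls. Myh1, of the IIx fibers, was at 11.93 on both controls against 11.82 and 12.09. Myh4, of the IIb fibers, was at 12.46 and 12.42 against 12.35 and 11.85, lower on both arrays by 0.07 at the nearest pair. The log2 fold changes of the 5 coding genes beyond Myh3 on its side, Sco1, Adprm, Tmem220, Pirt and Shisa6, ran from -0.09 to 0.10, and all overlapped. Gas7, beyond Myh13, was at -0.06.

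Of 20 measured fast sarcomere genes, 1 was above both controls and 5 were below, a share near the 23.0% of all genes. By sign alone, 18 of the 20 had a log2 fold change below 0, against 11208 of all 19938 genes. The list median was -0.10, and -0.0028 without shlinc-MYH replicate 2. Tnnt3, Tnni2, Tnnc2, Pvalb, Atp2a1 and Myh4 lay at percentile 100.0 of the control signals, and whether signal near the top of the array compresses differences was not tested. Mylk4, a myosin light chain kinase, had the lowest value, at 10.52 and 11.10 against 9.99 and 10.34. Tnnc2, Myoz1, Atp2a1 and Myh4 were the other 4, by at most 0.12 at the nearest pair of arrays. Mylk2, the skeletal myosin light chain kinase, was the gene above, at 8.87 and 9.02 against 9.10 and 9.02, a distance of 0.01. Among 24 channel and excitation genes of adult fast fibers, 10 were below (41.7%) and 2 above, with a median of -0.14 that was -0.03 against control 1. Scn4b, a sodium channel subunit, was at 7.05 and 7.25 against 6.50 and 6.31, and Clcn1, the chloride channel of the fiber membrane, at 8.26 and 8.29 against 7.99 and 7.96. Kcnn3, a potassium channel that appears in denervated fibers, went the other way, at 7.08 and 7.14 against 7.83 and 8.25.

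**Figure D2:**
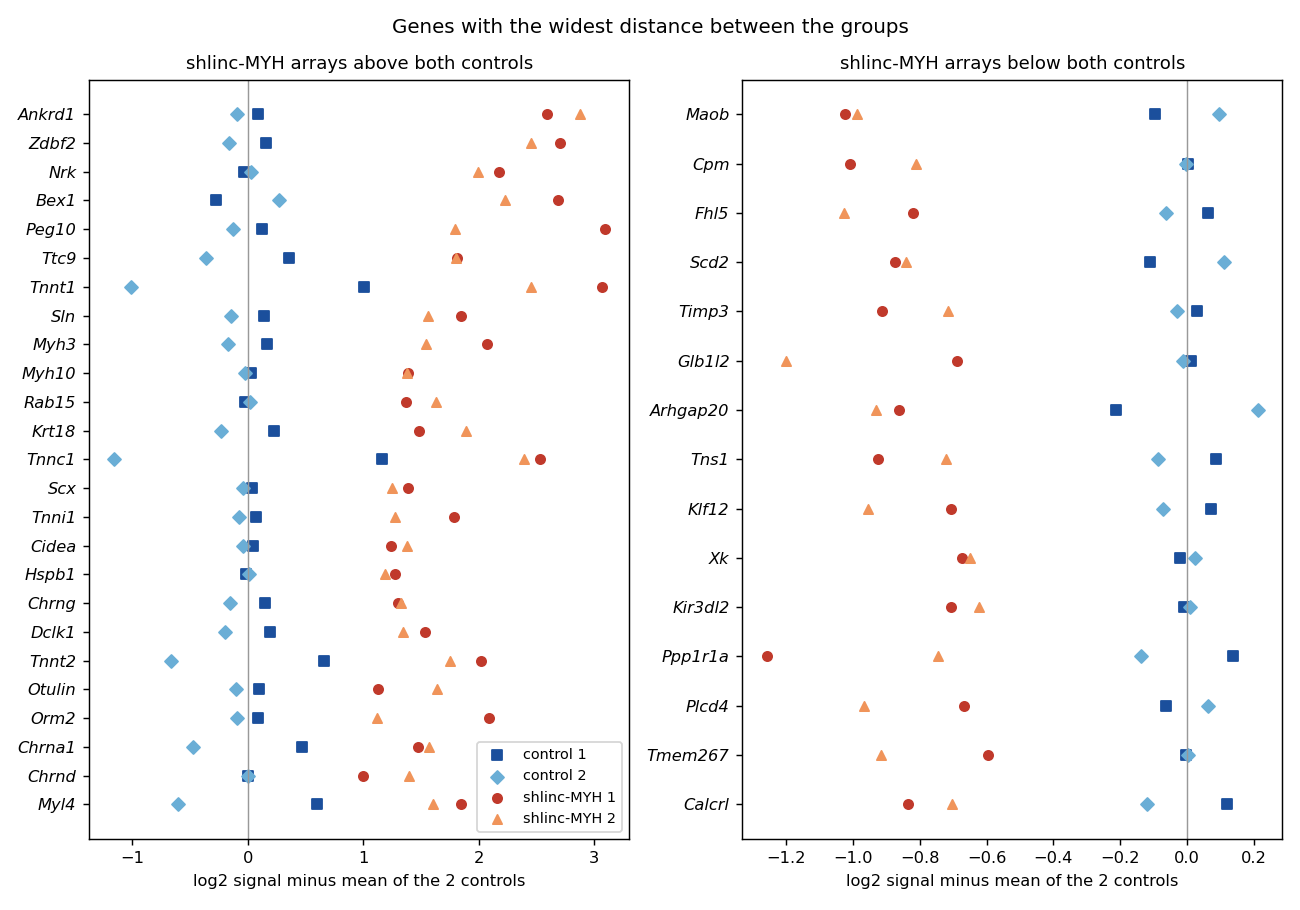
Log2 signal of each array minus the mean of the 2 controls, for the 25 genes with the widest distance between the groups upward (left) and the 15 downward (right), in order of that distance and without unnamed clones. Squares and diamonds are the controls, circles and triangles the shlinc-MYH arrays, and the horizontal scales of the panels differ. The controls of Tnnt1, Tnnc1, Tnnt2, Chrna1 and Myl4 are spread wide, whereas those of Nrk, Myh10, Rab15 and Hspb1 nearly coincide.

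Of the 5 receptor subunits of the neuromuscular junction that were measured, 3 were above both controls, and none of these passed the limma test. Chrng, the fetal gamma subunit of the acetylcholine receptor, was at 5.33 and 5.03 in the controls and at 6.48 and 6.51 with shlinc-MYH. Chrnd, the delta subunit, was at 5.78 on both controls against 6.78 and 7.18, and Chrna1, the alpha subunit, at 6.37 and 5.42 against 7.37 and 7.47. Their limma adjusted p-values were 0.111, 0.168 and 0.35. Chrnb1 and Chrne, the beta and the adult epsilon subunit, overlapped between the groups at log2 fold changes of 0.25 and 0.18. Musk, the receptor kinase that clusters them, had a log2 fold change of 0.66 and Etv5, a transcription factor of the junction, one of 0.46. These 5 of 15 measured genes were above both controls (33.3%, against 16.3% of all genes) and 1 was below. The list median was 0.11, and 0.03 without shlinc-MYH replicate 1. The 1 below was Ky, a protein of the sarcomere and junction, at 6.33 and 7.16 against 6.30 and 6.14.

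Several regulators and markers of young fibers were higher as well. Myog, the myogenic factor of differentiation whose promoter holds the MEF3 site shown above, was at 6.31 and 5.16 against 7.19 and 7.48 (fold 3.03, limma adjusted p = 0.423). Bex1, an adaptor made in regenerating muscle, was at 6.56 and 7.11 against 9.52 and 9.06, and its fold of 5.49 had a limma adjusted p of 0.0579. Dclk1, a microtubule-binding kinase, was at 5.50 and 5.10 against 6.84 and 6.65. Mymk, which drives cell fusion, was at 6.06 and 5.78 against 7.36 and 6.64. Of 23 measured myogenic and satellite cell genes, 11 were above (47.8%, against 16.3% of all genes) and 4 below (17.4%, against 23.0%). Pax7, the satellite cell factor, was at -0.06. Of 20 denervation and atrophy genes 9 were above (45.0%, against 16.3% of all genes) and 4 below (20.0%, against 23.0%). Ncam1, an adhesion molecule of denervated fibers, was at 6.20 and 5.57 against 7.36 and 6.84, and Gadd45a, a stress-responsive gene, at 8.33 and 8.09 against 8.96 and 8.95. Both ubiquitin ligases of atrophy overlapped between the groups, with log2 fold changes of -0.15 for Fbxo32 and 0.13 for Trim63. Leaving out shlinc-MYH replicate 1 took the denervation median from 0.48 to 0.23.

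Of 36 fiber-type regulators, 10 were below both controls (27.8%) and 5 above (13.9%), near the 23.0% and 16.3% of all genes. Sox6, a repressor of slow genes, was at 8.11 and 8.38 against 7.92 and 7.67. Six5 was at 4.74 and 4.85 against 4.34 and 4.39, while Six4 overlapped at a log2 fold change of -0.07. Hdac4, a repressor that accumulates after denervation, was at 6.24 and 6.90 against 6.97 and 7.14. Myod1 and Tead4, a myogenic factor and a factor that binds MCAT elements, were the highest of the list, both at 0.54.

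Of 23 imprinted genes measured, 5 were above (21.7%) and 3 below (13.0%), against 16.3% and 23.0% of all genes. Besides Zdbf2, these were Peg10 at 5.43 and 5.17 against 8.39 and 7.09, Igf2, a growth factor of fetal and regenerating muscle, at 7.56 and 6.87 against 8.97 and 8.27, Peg3 at 8.06 and 7.44 against 9.06 and 8.60, and Grb10 at a log2 fold change of 0.30. Peg10 had a fold of 5.44 with its shlinc-MYH arrays apart (limma adjusted p = 0.252). Meg3, Dlk1 and Mest lay between 0.02 and 0.08. The list median was 0.06, and -0.0451 without shlinc-MYH replicate 1.

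Some cytoskeletal genes were higher as well, with Myh10 and Krt18 among the widest differences. Myh10, a nonmuscle myosin heavy chain, was at 5.75 and 5.70 against 7.11 on both shlinc-MYH arrays. Krt18, a keratin of epithelia, was at 5.05 and 4.59 against 6.30 and 6.71, and its partner Krt8 was at 6.56 and 6.21 against 6.96 and 6.79. Des, Lmna and Sync, which are desmin, lamin A and the desmin-binding syncoilin, were also above both controls, as was Nes, nestin. In all, 6 of 12 intermediate filament genes were above (50.0%, against 16.3% of all genes) and 2 below. The list median was 0.28, and 0.48 without control replicate 1. Vim, vimentin, overlapped, with 9.87 on control 1 and 8.87 on control 2. In the strain-responsive list 10 of 17 were above (58.8%, against 16.3% of all genes) and 3 below. The median of this list was 0.42, and 0.29 without shlinc-MYH replicate 2. Xirp1, a protein of myotendinous ends and damaged sarcomeres, was at 6.71 and 6.74 against 7.68 and 8.20, and Csrp3, muscle LIM protein, which also stands in the slow list, was at 8.24 and 8.40 against 8.90 and 9.36.

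Of the remaining genes with groups 2-fold apart, Scx, a tendon transcription factor, was at 5.90 and 5.82 against 7.25 and 7.11. Cidea, a lipid droplet protein, was at 4.79 and 4.70 against 5.99 and 6.13. Both had a limma adjusted p of 0.0579, as had Rab15, a vesicle GTPase, at 4.02 and 4.06 against 5.41 and 5.67. Ttc9 was at 5.29 and 4.57 against 6.74 on both shlinc-MYH arrays. Otulin, an enzyme that removes linear ubiquitin chains, was at 6.80 and 6.60 against 7.83 and 8.34. A930003A15Rik, a clone without an established name, was at 5.58 and 5.12 against 6.71 and 6.70.

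Chaperone genes were higher on both arrays in most of the members measured. All 8 measured members of the small heat shock list, 7 small heat shock proteins and the co-chaperone Bag3, were above both controls on both arrays, against 16.3% of all genes, with a median of 0.44. Hspb1 was at 8.84 and 8.86 against 10.13 and 10.04 (fold 2.35, limma adjusted p = 0.0579), and its other probe set had a log2 fold change of 1.15. Hspb8, which works with Bag3, was at 9.24 and 9.89 against 10.62 and 11.16. Hspb7 was at 9.20 and 9.01 against 9.72 and 10.40. Hspb6, Hspb2 and Cryab had the smallest values of the list, at 0.25, 0.25 and 0.26. Of the 6 with a promoter window, 3 held the heat shock core, namely Hspb1, Hspb3 and Hspb6.

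Of 33 genes for Hsp70, Hsp90, Hsp40 and chaperonin proteins, 23 were above (69.7%, against 16.3% of all genes) and 3 below. Their median was 0.30. Hsp90aa1, the inducible Hsp90, was at 8.78 and 8.67 against 9.47 and 9.93. Hspa1l was at 6.66 and 7.34 against 7.87 and 8.27. Hspa2, a Hsp70 of testis and other tissues, was at 6.36 and 6.19 against 7.09 and 7.06. The subunits of the cytosolic chaperonin that fold actin and tubulin, such as Cct3 at 0.51, were within the 23. The 3 below were Stip1, Hspd1, the mitochondrial chaperonin, and Dnajb5. Of 15 chaperones of the endoplasmic reticulum 9 were above (60.0%, against 16.3% of all genes) and 2 below. Dnajb11 was at 7.77 and 7.66 against 8.37 and 8.40. Hspa5, an Hsp70 of the endoplasmic reticulum, was at 8.56 and 8.61 against 8.98 and 8.97.

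Proteasome subunits were higher by little, and mostly against control 1. Of 31 measured, 17 were above (54.8%, against 16.3% of all genes) and 2 below, and the median was 0.18. It was 0.32 against control 1 and 0.05 against control 2, and control 1 was the lowest of the 4 arrays for 24 of the 31 genes. Psmd13, of the regulatory cap, was at 7.20 and 7.24 against 7.81 and 7.58, and Psmb1, of the core, at 8.43 and 8.73 against 9.09 and 9.03.

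In the integrated stress response and amino acid synthesis list 16 of 28 were above (57.1%, against 16.3% of all genes) and 1 below. The list median was 0.20. Asns, asparagine synthetase, was at 5.01 and 4.98 against 5.43 and 6.54, and Atf3, a stress-induced transcription factor, at 6.59 and 5.92 against 6.87 and 7.41. Trib3, a target of the same response, was at 5.03 and 5.00 against 5.34 and 5.73. On shlinc-MYH replicate 2 16 of the 28 genes had their highest value, and the median without that array was 0.11. Atf4, the factor that drives the response at the protein level, overlapped at -0.12.

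Of 7 measured polyamine genes, 5 were above both controls (71.4%, against 16.3% of all genes). Below both was 1 (14.3%, against 23.0%), and the list median was 0.42. Odc1, the first enzyme of the synthesis, was at 9.11 and 9.18 against 9.78 and 9.86. Its regulator Azin1 was at 7.64 on both controls against 8.19 and 8.53, and Sat1, which acetylates polyamines for export, at 7.25 and 6.82 against 7.77 and 7.90. Sat2 was also above, and Oaz2 was above by 0.01. Smox, spermine oxidase, was lower on both arrays, at 6.69 and 7.74 against 6.18 and 6.10 (log2 fold change -1.07). Srm, spermidine synthase, overlapped, and with it all 7 measured genes are accounted for.

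Acute phase and secreted inflammatory genes were above both controls in 10 of 21 (47.6%, against 16.3% of all genes) and below in 1. Orm2, an orosomucoid of the acute phase, was at 5.14 and 4.96 against 7.14 and 6.17. Nnmt, an enzyme that methylates nicotinamide, was at 5.64 and 5.72 against 6.62 and 7.00, and Slpi, a protease inhibitor, at 5.78 and 5.33 against 6.54 and 6.70. Control 2 had the lowest signal for 13 of the 21, and the median was 0.16 against control 1 and 0.48 against control 2. In the tenth of the 10, Il6, the distance between the groups was under the rounding of these values.

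The genes furthest below the controls were of mixed function, and apart from Gm13092 none had its groups 2-fold apart. Maob, a monoamine oxidase of the outer mitochondrial membrane, was at 6.72 and 6.91 against 5.79 and 5.83 (fold 0.498, limma adjusted p = 0.148). Cpm, a membrane carboxypeptidase, was at 4.83 on both controls against 3.82 and 4.02. Fhl5, a LIM protein, was at 5.83 and 5.70 against 4.94 and 4.74, and Scd2, a fatty acid desaturase, at 5.56 and 5.78 against 4.79 and 4.83. Timp3, an inhibitor of matrix proteases, was at 8.86 and 8.80 against 7.92 and 8.12, and Timp4 was at 8.56 and 8.07 against 6.88 and 7.67. Timp2, of the same family, lay on the other side, at 7.55 and 7.62 against 8.54 and 8.48. Ppp1r1a, an inhibitor of protein phosphatase 1, was at 7.48 and 7.21 against 6.08 and 6.60. Tns1, a protein of focal adhesions, was at 9.26 and 9.09 against 8.25 and 8.46. The remaining names among the 15 widest were Glb1l2, Arhgap20, Klf12, Xk, Kir3dl2, Plcd4, Tmem267 and Calcrl, with log2 fold changes from -0.94 to -0.66. Fat3, at -1.06, was lower at its brightest probe set, while its other 14 probe sets ran from -0.74 to 0.01.

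Of 28 measured genes of fatty acid uptake and oxidation, 17 were below both controls and 0 above, against 23.0% of all genes below, and the median was -0.21. Cd36, a fatty acid transporter, was at 10.86 and 10.48 against 9.79 and 10.20. Hadh, a dehydrogenase of beta-oxidation, was at 8.18 and 8.26 against 7.87 and 7.86. Etfb, a subunit of an electron carrier in fatty acid oxidation, was at 9.99 and 9.97 against 9.63 and 9.70. Shlinc-MYH replicate 1 was the lowest array for 20 of the 28, and leaving it out gave a median of -0.13, against -0.32 when replicate 2 was left out. Fabp4, another of the 17, also stands in the list of endothelial markers, and Cd36 is made by endothelial cells too.

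Of 28 glycolysis, glycogen and phosphocreatine genes 9 were below (32.1%, against 23.0% of all genes) and 2 above. Besides Ppp1r1a, described above, the 9 included Ppp1r3c, a glycogen-targeting subunit of the same phosphatase, at 10.46 and 10.76 against 10.24 and 9.67, and Slc2a4, the insulin-responsive glucose transporter, at 8.55 and 8.85 against 8.35 and 8.34. The list median was -0.26 against control 2 but -0.01 against control 1. Of 46 respiratory chain and ATP synthase genes 19 were below (41.3%) and 6 above. The median was -0.07, with -0.02 against control 1 and -0.11 against control 2, and control 2 was the highest array for 29 of the 46. Lower by most was Ndufs8, of complex I, at 8.24 and 8.31 against 7.67 and 7.92.

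**Figure D3:**
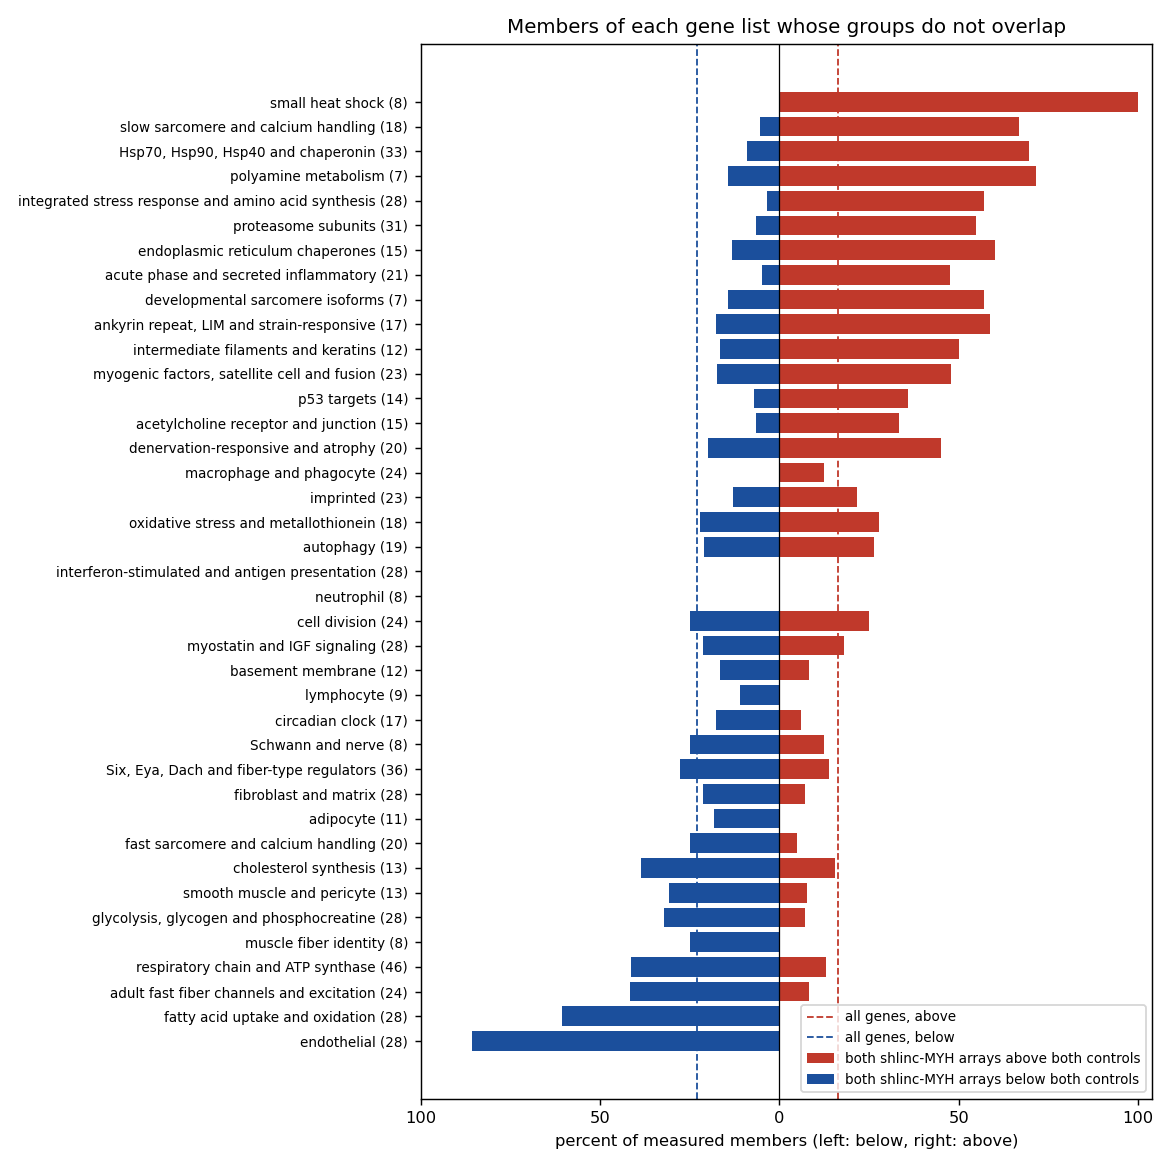
Percent of the measured members of each gene list (number in parentheses) whose shlinc-MYH arrays both lay above both controls (red, to the right) or both below (blue, to the left). Dashed lines give the same shares over all genes, 16.3% above and 23.0% below. Small heat shock genes fill the red side, endothelial and fatty acid genes reach furthest on the blue side, and interferon and neutrophil genes have no bar.

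Dissected fibers can carry RNA of vessels and other cells. Endothelial markers were measured for 28 genes, which lay between percentile 41.2 and 98.5 of the control signals, so vessel RNA was present. On both shlinc-MYH arrays 24 of them were below both controls (85.7%, against 23.0% of all genes), 0 were above, and no value exceeded 0. The vessel adhesion protein Pecam1 was at 7.66 and 7.49 against 6.46 and 7.02, and the growth factor receptor Flt1 at 8.00 and 7.73 against 6.75 and 7.35. Shlinc-MYH replicate 1 was the lowest array for 25 of the 28. The median of -0.47 became -0.27 when shlinc-MYH replicate 1 was left out, and -0.70 when replicate 2 was. In a bulk sample, fewer cells of a type and less RNA per cell cannot be told apart. The part of vessel RNA in the lower fatty acid genes, and in the lower Calcrl, a receptor of vessels, was not tested. Of 13 smooth muscle and pericyte markers 4 were below (30.8%, against 23.0% of all genes) and 1 above. The 1 above was Des, which fibers make themselves.

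Interferon-stimulated and antigen presentation genes were high on 1 array. For all 28 measured members shlinc-MYH replicate 2 had the highest signal, and for 17 shlinc-MYH replicate 1 had the lowest. The groups thus overlapped in 28 of 28, and the list mean relative to the controls was -0.29 on replicate 1 and 0.69 on replicate 2. Rsad2, an antiviral enzyme, was at 7.17 and 6.92 in the controls and at 7.07 and 9.29 with shlinc-MYH, so its mean difference of 2.19-fold came from 1 array. The median of the list was -0.24 without replicate 2.

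Macrophage markers separated the controls rather than the groups. Of 24 measured, 13 were highest on control 1 and 18 lowest on control 2. Above both controls were 3 (12.5%, against 16.3% of all genes) and below both 0 (0%, against 23.0%). The list mean was 0.30 on control 1 and -0.30 on control 2, with the shlinc-MYH arrays at 0.04 and 0.06. Mmp12, a macrophage protease, was at 7.65 and 5.03 in the controls and at 6.28 and 4.75 with shlinc-MYH. Retnla, a product of alternatively activated macrophages and fat, was at 4.86 and 6.76 against 3.81 and 5.57, so its log2 fold change of -1.12, the lowest of all genes, came with overlapping groups. Slow sarcomere genes had their lowest signal on control 2 in 13 of 18, and whether this goes with the macrophage difference was not tested.

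Neutrophil markers had 0 of 8 genes above both controls and 0 below, against 16.3% and 23.0% of all genes. Lymphocyte markers had 0 above and 1 below of 9 (11.1%). Of 11 adipocyte markers 2 were below both controls (18.2%, against 23.0% of all genes) and 0 above. Ces1d, a carboxylesterase, was at 5.52 and 6.34 against 5.01 and 4.81. Schwann cell markers had 1 above and 2 below of 8, and basement membrane genes 1 above and 2 below of 12. Of the 2 red blood cell markers 1 was above and 0 below, too few genes for a share. Of 28 fibroblast and matrix genes 2 were above (7.14%) and 6 below (21.4%), against 16.3% and 23.0% of all genes. Collagens were among those above and those below. Cell division genes had 6 above and 6 below of 24.

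**Figure D4:**
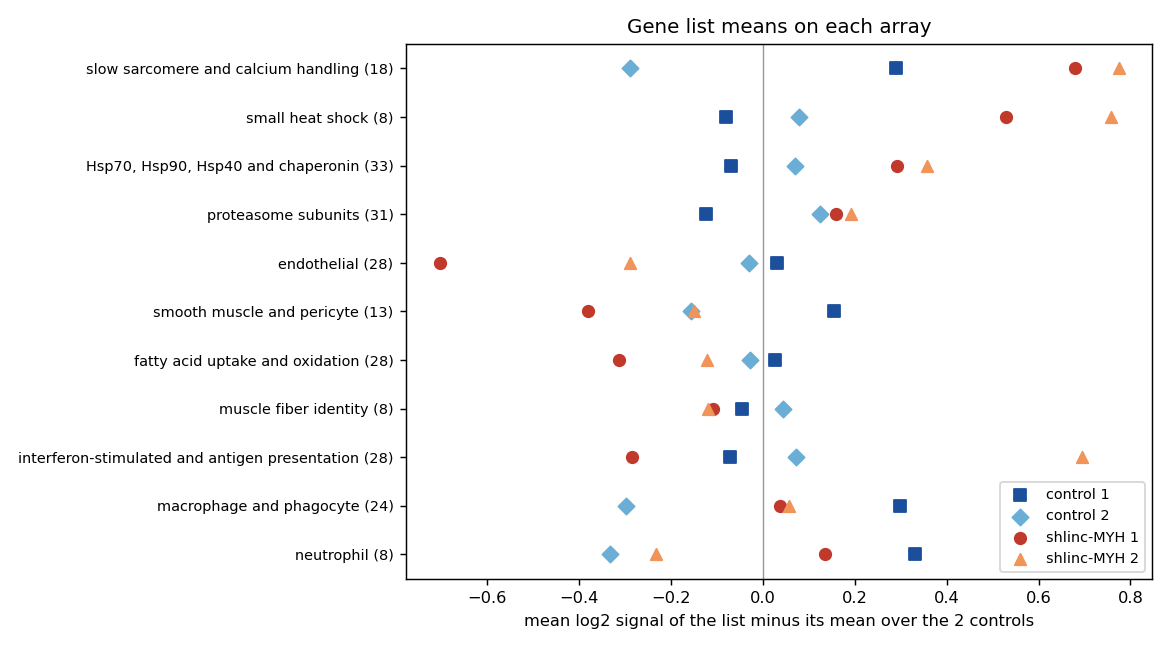
Mean log2 signal of the members of 11 gene lists on each array, minus the mean over the 2 controls (number of measured genes in parentheses). Chaperone lists have both shlinc-MYH arrays to the right of both controls and endothelial genes have both to the left, while interferon genes have shlinc-MYH 2 alone at 0.69 and macrophage genes separate the 2 controls.

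P53 targets had 5 above (35.7%, against 16.3% of all genes) and 1 below of 14, with Eda2r, a receptor of the tumor necrosis factor family, at 5.38 and 5.41 against 6.37 and 6.62. Autophagy genes had 5 above and 4 below of 19 (26.3% and 21.1%, against 16.3% and 23.0% of all genes). Oxidative stress genes had 5 and 4 of 18 (27.8% and 22.2%). Circadian clock genes had 1 and 3 of 17 (5.88% and 17.6%). Myostatin and IGF signaling genes had 5 above and 6 below of 28 (17.9% and 21.4%). Igf1 was at 7.25 and 7.56 against 6.93 and 6.67, opposite to Igf2. Cholesterol synthesis had 2 above and 5 below of 13 (38.5% below, against 23.0% of all genes).

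Genes with large mean differences but overlapping groups were few among the 57. They were Mt2, a metallothionein, at 9.89 and 8.36 against 11.06 and 9.80, Serpina3n, an acute phase inhibitor, at 6.52 and 5.37 against 7.90 and 6.42, and Rsad2. In Mt2 and Serpina3n the higher control stood just above the lower shlinc-MYH array, by 0.09 and 0.10. Below 2-fold, groups also overlapped for Scn2a, read from 1 of 14 probe sets, and Mt1 upward, and for Myh11, Ostn and Gdap1 downward. For Gdap1, control 1 at 4.40 lay below both shlinc-MYH arrays.

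Probe sets that the annotation gives several symbols cannot be assigned to 1 gene, and 1621 of them were fitted together with the genes. Limma called 0 of these (0%), and 77 had an unadjusted p under 0.05. Both shlinc-MYH arrays were above both controls for 245 (15.1%) and below for 346 (21.3%). The widest was shared by Cdkn1a, the p53-responsive inhibitor of the cell cycle, and 4930567H12Rik, at 7.61 and 7.25 in the controls and 8.42 and 8.65 with shlinc-MYH (fold 2.15, limma adjusted p = 0.261). A probe set shared by Tceal3, Tceal5 and Tceal6 was at 6.11 and 6.08 against 7.07 and 6.89. One of Tceal5 alone was at 7.12 and 7.30 against 8.57 and 8.26. A probe set annotated to Mir675 and Supt6 was at 8.74 and 8.48 against 9.89 and 9.40. With a distance of at least 0.5 between the groups there were 3 such probe sets upward and 0 downward. The probe set for Mir29c and A330023F24Rik was lower, at 8.47 and 8.45 against 7.63 and 8.10.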

How the data were processed

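Total RNA from dissected fibers was read on Affymetrix Mouse Gene 1.0 ST arrays. The deposited table holds log2 signals of 35556 probe sets, made by the authors with RMA (background correction, quantile normalization and probe set summary). RMA and Partek are named in the submitters' processing notes without versions. Quantile normalization sets arrays to one distribution, so a shift shared by most genes would not appear. An array has no read depth, and 2 arrays per group limit the precision.

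Of the probe sets, 21789 had 1 symbol in the platform annotation, 1621 several and 12146 none. Each of 19938 genes was read from its brightest probe set over all arrays. The groups were compared with limma 3.58.1 in R 4.3.3 on the 4 TA arrays, with Benjamini-Hochberg adjustment over all genes and a threshold of 0.05. The comparison with the gastrocnemius arrays is not reported here. The code was checked on simulated data. Samples were grouped by title.

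Members and gene lists were chosen with earlier results of these data known. Named genes were those the study names, neighbors at the Myh locus, called genes, the 25 widest distances between groups upward and the 15 downward, the 10 largest overlapping differences each way, and from each list the 6 members with the widest distance (all members where 12 or fewer were measured). Unnamed clones were skipped. Casq2, Atp2a2, Tpm3, Pax7, Fbxo32, Trim63, Grb10, Meg3, Dlk1, Mest, Cct3, Stip1, Hspd1, Dnajb5, Atf4, Il6, Fat3, Tceal5, A930003A15Rik and Gm13092 were named after their values were seen. Other normalizations, filters, probe set rules, fits and left-out arrays were tried as alternatives. Promoter sequence came from RefSeq (GRCm38.p6).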

Additional observations from a re-analysis of the deposited data

Results flagged for a closer look

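Outside the genes compared, 13 of 12146 probe sets without a symbol had both shlinc-MYH arrays at least 2-fold above both controls. Another 15 of the 12146 had both at least 2-fold below. Among the 19938 named genes, a larger set, these counts were 24 (0.120%) and 1 (0.00502%). The probe sets carry no name in the annotation used here, so nothing is said of what they measure.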

How the results depend on the processing

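Limma called 3 genes higher, and the same 3 remained after quantile normalization, with the mean of probe sets, and with an intensity trend and robust prior; Nrk was left out as dim by the filter, which kept 2. Centring arrays on their median gave 10 calls, all higher, adding Bex1, Cidea, Hspb1, Myh10, Rab15, Scx and Sln. With all 10 arrays in 1 fit there were 105 higher, 26 lower and 2 probe sets with several symbols. The methods' t-test gave 0 after Benjamini-Hochberg adjustment, and 599 higher and 784 lower at an unadjusted p under 0.05. The replicate block, used as an alternative since the labels tie no number to an animal, gave 5 higher, adding Myh3 and Sln; deviations of same-numbered arrays correlated at 0.185 over genes, with 2 pairs. Without any 1 TA array (control replicate 1 or 2, shlinc-MYH replicate 1 or 2) limma called 0 to 0 genes. Such fits gave 68 to 100 genes 2-fold higher and 14 to 56 lower, and the cause was not tested. Without overlap there were 5629 to 6449 higher and 7423 to 8019 lower. With groups 2-fold apart there were 36 to 57 above and 6 to 23 below. Counts without overlap and with groups 2-fold apart cannot fall when an array is left out, because fewer arrays have to lie apart. The filter on dim genes keeps those at or above the median signal, so its counts are over fewer genes. Of these, 2140 were higher and 2122 lower without overlap. The 1 gene 2-fold below was 0 after quantile normalization and 0 without dim genes. List medians ranged over left-out arrays from 0.29 to 0.49 for strain-responsive genes, 0.23 to 0.53 for denervation genes and 0.21 to 0.48 for intermediate filaments, which had 0.46 without dim genes. Signs turned for genes near 0. Aldoa was 0.0189 after quantile normalization, 0.0044 centred and -0.0994 to 0.0447 over left-out arrays. Pvalb was 0.0329 after quantile normalization and -0.1288 to 0.0232 over left-out arrays, and Tnnt3 was 0.0245 centred and -0.081 to 0.0665. Over left-out arrays Myh1 ran from -0.107 to 0.1629, Myh2 from -0.8396 to 0.3202 and Myh7 from -0.6758 to 0.0219; the cause was not tested. The other 324 list medians under alternatives moved by less than the spread between replicates, and some of those near 0 changed sign.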
